A study of Mus musculus with 24 samples.

Results

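The genes of the cytosolic ribosome were examined in peak lists from chromatin immunoprecipitation sequencing (ChIP-seq) of cultured mouse fibroblasts. A gene counted as a member if it is protein-coding in the mm9 annotation and its symbol is Rpl or Rps followed by a digit, or is Rplp0, Rplp1, Rplp2 or Rpsa. Ribosomal S6 kinase genes, symbols with -ps and copies with Gm symbols were left out. The rule uses names and no measured value, and it gave 85 of 22219 protein-coding genes. Of these, 76 encode a subunit found in the standard ribosome, 31 in the small and 45 in the large subunit. The other 9 are close copies of such genes or carry a matching symbol, namely Rpl10l, Rpl36al, Rpl39l, Rpl3l, Rpl7l1, Rpl22l1, Rps4y2, Rps27l and Rps19bp1.

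The study addressed the part that the homeobox transcription factor Prrx1 plays in fibroblasts, and the series holds 24 samples from 3 fibroblast types, all carrying the papillomavirus E6 and E7 genes as an immortalising step. Mouse embryonic fibroblasts (MEF) carry the strain label C57BL/6, and the study took them from embryos of day 10 to 13. They were profiled as wild type (WT), as KI, which was read as the Prrx1 mutant allele with lacZ inserted in the homeodomain because the labels do not spell it out, and as SG, in which Prrx1 was targeted with CRISPR/Cas9 and a guide RNA. Cancer-associated fibroblasts (MMTV-CAF) carry the label FVB/NJ and came from mammary tumours driven by the polyoma middle T oncogene. Wound-healing fibroblasts carry the label C57BL/6 and came from dorsal skin wounds at day 10. Both of these types were profiled as WT and as SG. Whether an SG culture is 1 clone or a pool was not found in the sources used here. The study's cultures used beside SG cells elsewhere carried a non-targeting guide, and whether the WT cells profiled here did is not stated in the labels. KI and SG are called deleted below, although KI is an insertion.

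There are 7 lists of histone H3 trimethylated at lysine 4 (H3K4me3), 7 of histone H3 acetylated at lysine 27 (H3K27ac) and 3 of Prrx1 in WT cells, and each group has 1 list per target, so no difference below has a replicate check and no p-value is given. The study describes its Prrx1 immunoprecipitation as made in duplicate with a normal IgG control, and the sources used here do not say if a Prrx1 list combines them. The lists held 13125 to 29166 H3K4me3 regions, 29325 to 61603 H3K27ac summits and 3048 to 8000 Prrx1 summits. Read totals are not part of the lists, so the depth behind them is unknown, and scores are relative to each list's own library and input. The Prrx1 gene itself had an H3K4me3 region over its start in all 7 lists, deleted cells included, and a mark at a gene's start cannot check a guide or an insertion. Of 9 fibroblast marker genes, 7 to 9 had an H3K4me3 region within 1 kb in every list. Of 6 epithelial markers 0 to 3 did, most in wound-healing fibroblast WT (Krt18, Epcam and Cdh1), whereas immune (Cd68) and endothelial (Kdr) markers had 0 to 1 of 4. Intervals are 95% intervals (Wilson for shares, order statistics for medians) and cover counting over genes only, not differences between cultures.

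Ribosomal protein genes encode the structural proteins that, with ribosomal RNA, build the subunits that decode messenger RNA and form peptide bonds. They are short, are transcribed at high rates in growing cells, and many of their transcripts begin with a C followed by a tract of pyrimidines (a TOP sequence) through which mTOR signalling controls their translation. H3K4me3 marks the start region of active genes and H3K27ac marks active promoters and enhancers, so genes needed in every cell type give a scale on which lists can be read side by side.

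The sequences at the starts show which of these features the annotation places there. The following 60 bases run from 30 bases before to 30 from the annotated start on the gene's own strand (NCBIM37, which is mm9), and capitals mark a pyrimidine run of at least 6 bases that begins with C within 5 bases of the start. They are Rps2 (chr17:24857025-24857084, plus strand), Rplp1 (chr9:61762316-61762375, minus) and Rps15 (chr10:79755168-79755227, plus), shown because their runs were among those that the rule found in the members.
Rps2: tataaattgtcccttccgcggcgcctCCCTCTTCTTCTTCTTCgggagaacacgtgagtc
Rplp1: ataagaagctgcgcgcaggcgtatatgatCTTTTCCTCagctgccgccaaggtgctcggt
Rps15: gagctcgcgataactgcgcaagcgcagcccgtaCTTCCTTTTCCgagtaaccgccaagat
Such a run was found at 16 of 85 members (18.8%), at 9.45% of all protein-coding genes and at 35% of 20 other genes known for TOP transcripts. The search depends on the annotated base, and a start annotated a few bases away hides the run. A run is counted from its first C within 5 bases of the start, and further pyrimidines precede the capitals in Rps2 and Rplp1.

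In the 300 bases from 250 before to 50 after the start, the members held some short motifs at other shares than all genes (both strands were searched, and overlapping motifs were counted separately). CCGGAA, the core bound by ETS factors, was in 39 members (45.9%) and 18% of all genes. Mitochondrial ribosomal protein genes held it in 53.2%. ATGGCGG, the core bound by Yy1, was in 14 members (16.5%) and 5.25% of all genes. GGGCGG, the core bound by Sp factors, was in 55.3% of members and 44.9% of all genes, TATAAA in 11.8% and 13.4%, and TAATTA, the sequence recognised by homeodomains, in 1 member and in 4.68% of all genes. Among the 7286 genes with H3K4me3 over the start in all 7 lists the shares were 34.5% for CCGGAA, 10.4% for ATGGCGG, 68.7% for GGGCGG, 4.94% for TATAAA and 1.98% for TAATTA. Among the 50 members covered in all 7 lists they were 42%, 16%, 62%, 16% and 2%. Set beside marked genes, the members thus held GGGCGG at a lower and TATAAA at a higher share, the other way round from the comparison with all genes. The following windows of the same kind show where the ETS core (capitals, either strand) lies in Rpl11 (chr4:135609279-135609338, minus), Rpl26 (chr11:68715055-68715114, plus), Rps18 (chr17:34092633-34092692, minus) and Rpsa (chr9:120036854-120036913, plus).
Rpl11: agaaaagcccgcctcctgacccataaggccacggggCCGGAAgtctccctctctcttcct
Rpl26: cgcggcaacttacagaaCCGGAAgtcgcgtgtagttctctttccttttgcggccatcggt
Rps18: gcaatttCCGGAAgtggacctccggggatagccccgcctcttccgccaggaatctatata
Rpsa: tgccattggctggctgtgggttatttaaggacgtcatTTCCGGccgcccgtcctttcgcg
A match is a description of letters and does not show that a factor binds there.

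Nearly every standard ribosomal protein gene carried H3K4me3 in every list, but in MEF KI many of the marks began just behind the annotated start. An H3K4me3 region lay over the start of 78 members in MEF WT (91.8%, 84 to 96), where 49.9% of all protein-coding genes were covered. In MEF SG it was 75 members (88.2%, against 47.9%), in MMTV-CAF WT 81 (95.3%, against 49.8%) and in MMTV-CAF SG 80 (94.1%, against 50.4%). In wound-healing fibroblasts it was 74 in WT (87.1%, against 51%) and 79 in SG (92.9%, against 52.1%). In MEF KI it was 54 (63.5%, 52.9 to 73, against 34.4%), the only list whose interval lay below those of the other 6. When a region that reached within 1 kb of the start was counted, a choice made after the values were seen, MEF KI had 80 members and the other lists 81 or 82. Over all 22219 protein-coding genes, 10744 had such a region in MEF KI and 11524 to 12386 in the other lists. All 76 standard genes then had a region in each list except Rpl18 in MEF KI.

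The 31 members not covered in MEF KI show how this came about. For 26 of them a region began downstream of the start, at a median of 65 bp and between 15 and 318 bp, for 0 a region ended upstream, and for 5 there was none within 1 kb. Of all member regions within 1 kb in MEF KI, 32.5% began downstream of the start, compared with 25.9% over all genes and 17.3% over mitochondrial ribosomal protein genes. In the other 6 lists the members' share was 0 to 9.76% and that of all genes 2.81 to 6.52%. Rps19, a small-subunit protein mutated in Diamond-Blackfan anaemia, had its MEF KI region begin 318 bp behind the start. Rpl21 and Rpl10a, both of the large subunit, had theirs at 240 and 221 bp, and Rpl11 and Rpl27 both at 145 bp. Rplp0, the base of the stalk that recruits elongation factors, had it at 130 bp, Rpsa, the small-subunit protein also known as laminin receptor, at 65 bp and Rplp1, a stalk protein, at 56 bp. A region over the start and one just behind it therefore differ by short distances, and presence over the base is a stricter measure than presence near it.

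**Figure D1:**
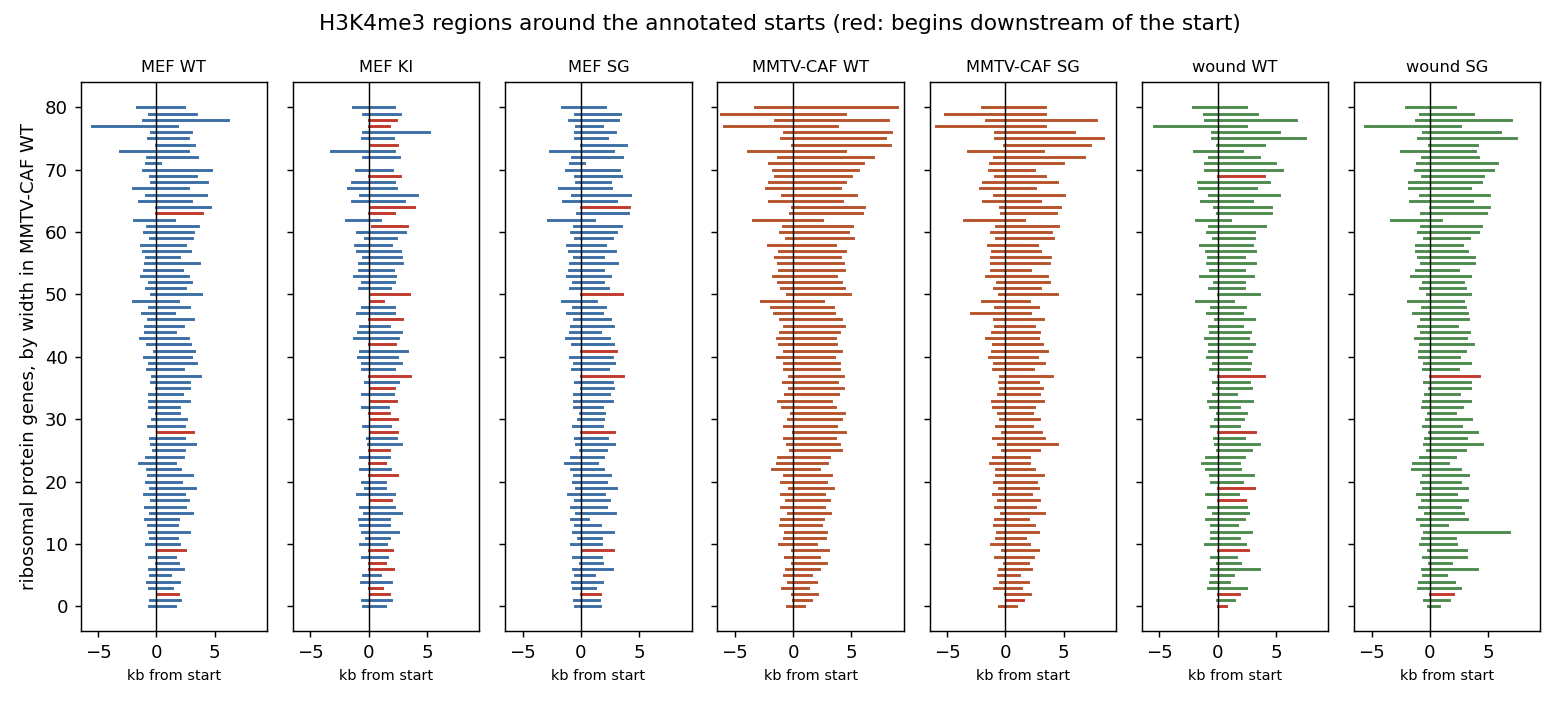
H3K4me3 regions within 1 kb of the starts of ribosomal protein genes, in each of the 7 lists. The horizontal axis gives the distance from the annotated start in kb, oriented with the gene, each bar is 1 region, the 81 genes with a region in MMTV-CAF WT are ordered by its width, and red bars begin downstream of the start. MEF KI holds 26 such bars and MMTV-CAF WT 0, and in every list the median reach downstream exceeds that upstream.

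In all 7 lists, 50 of 85 members and 7286 of 22219 protein-coding genes were covered over the start. Of the other members, 22 were covered in 6 lists, 5 in 5 lists, 4 in 3 lists, 1 in 2 lists and 3 in 0 lists. The 3 never covered are Rpl10l and Rpl39l, copies expressed mainly in the germ line, and Rpl3l, a copy of Rpl3 expressed mainly in striated muscle. These 3 genes also had no H3K27ac summit within 1 kb in any list. Rps29, a zinc-binding protein of the small subunit, was covered in the 2 MMTV-CAF lists alone (2141 bp in WT and 2173 bp in SG). In the other lists its region began 36 bp (MEF WT), 104 bp (MEF KI), 32 bp (MEF SG), 21 bp (wound-healing fibroblast WT) and 28 bp (SG) behind the start. Rpl5, Rpl38, Rps4x and Rps4y2 were covered in 3 lists each. Rps4y2, a second Rps4 gene, had regions of 1653 bp in MEF WT, 1219 bp in MEF SG and 743 bp in wound-healing fibroblast WT and none within 1 kb in the other 4 lists. Rpl18 of the large subunit (chr7:52970827-52976205, plus strand) was the only standard gene with a list that held neither a region nor a summit within 1 kb, and that list was MEF KI.

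Regions over ribosomal protein genes were wider than those over other genes in all 7 lists. The median width over members was 3432 bp in MEF WT (3177 to 3675, n = 78), where it was 2253 bp over all covered genes. It was 2926 bp in MEF KI (against 1926) and 3053 bp in MEF SG (against 2107). In wound-healing fibroblasts it was 3358 bp in WT (against 2081) and 3941 bp in SG (against 2373). It was highest in MMTV-CAF, at 4875 bp in WT (against 3039) and 4069 bp in SG (against 2857). The ratio of the medians lay between 1.42 (MMTV-CAF SG) and 1.66 (the SG list of wound-healing fibroblasts), while that of mitochondrial ribosomal protein genes lay between 0.808 and 0.893 and thus below 1 in every list. Wide regions were not particular to ribosomal proteins. The other TOP genes had higher medians than the members in all 7 lists, for example 4120 bp in MEF WT (n = 19), 4033 bp in wound-healing fibroblast WT and 6365 bp in MMTV-CAF WT. Translation factor genes lay between all genes and the members, with 2863.5 bp in MEF WT (n = 62) and 4009 bp in MMTV-CAF WT (n = 61). Ribosome biogenesis genes were also above all genes, with 2930.5 and 4352.5 bp in these lists (n = 16 in both). Between 53.8% and 75.9% of covered members were in the widest 25% of covered genes. A width over 4 kb was found for 26.9% of members in MEF WT (all genes 9.44%), 13% in MEF KI (3.92%), 32.4% in wound-healing fibroblast WT (8.91%) and 74.1% in MMTV-CAF WT (28.8%).

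**Figure D2:**
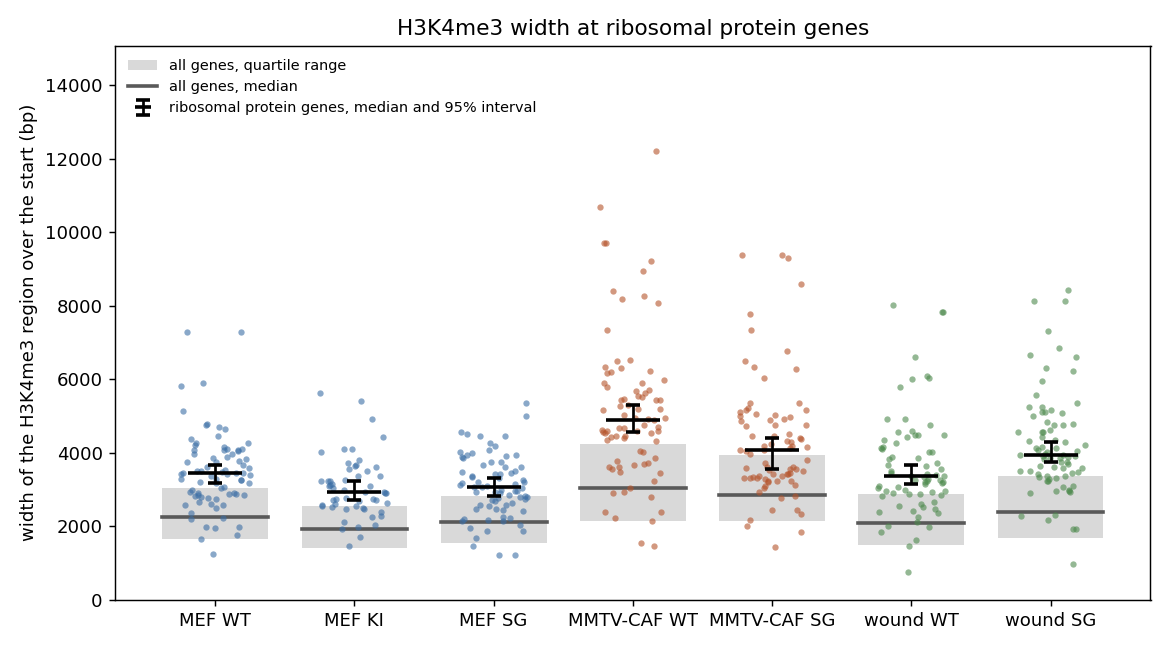
Width in bp of the H3K4me3 region over the start, by list; points are ribosomal protein genes, the black cross is their median with its 95% interval, and the grey box and line are the quartile range and median of all covered protein-coding genes. The members' median lies above the upper quartile of all genes in each of the 7 lists, with single regions up to 12192 bp in MMTV-CAF WT.

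The extra width lay downstream of the start. In MEF WT, regions over members reached a median of 695 bp upstream, compared with 691 bp over all covered genes, and 2605.5 bp downstream, compared with 1406 bp. In MMTV-CAF WT the upstream reach was 1003 bp against 882.5 bp and the downstream reach 3897 bp against 1929 bp. In wound-healing fibroblast WT they were 692 against 600 bp and 2630.5 against 1331 bp. Ribosomal protein genes are short, with a median of 3164 bp between start and end for covered members in MEF WT against 22886 bp over all covered genes, and the regions covered most of the gene. The median share of the gene inside its region was 86.2% in MEF WT (all genes 6.10%), 74.2% in MEF KI, 84.5% in wound-healing fibroblast WT and 100% in MMTV-CAF WT (all genes 8.55%). A region ran past the end of the gene for 25 of 78 members in MEF WT (all genes 273 of 11081) and 7 of 54 in MEF KI (119 of 7634). It did so for 36 of 79 in wound-healing fibroblast SG (357 of 11565) and 44 of 81 in MMTV-CAF WT (492 of 11064).

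Width was also compared within classes of gene length, and the gap to other genes was smaller in the shortest class. Among genes of up to 2 kb, the median was 2531 bp over 12 members and 2202 bp over all genes in MEF WT, 2169.5 and 2100.5 bp in MEF SG, and 3704 and 3104 bp in MMTV-CAF WT. Among genes of 2 to 5 kb, the median width in MEF WT was 3525.5 bp over 52 members and 2221 bp over all 1016 covered genes. In MMTV-CAF WT the values were 4921 bp and 3184 bp. Within the members, gene length and downstream reach had Spearman correlations of 0.14 (MEF KI, n = 54) to 0.43 (wound-healing fibroblast SG, n = 79), given as a description because the points share a library. The width order of members was similar between lists, with rho from 0.58 (MEF SG with MMTV-CAF SG and with wound-healing fibroblast SG) to 0.87 (MMTV-CAF WT with SG) over the 21 pairs of lists. Another start in the same region can widen it, and this was the case for 17.9% of members in MEF WT (all genes 18.9%) and 23.5% in MMTV-CAF WT (all genes 20.5%). With such regions left out, the members' median was 3251.5 bp against 2105 bp over all genes in MEF WT and 4581 bp against 2842.5 bp in MMTV-CAF WT.

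Small and large subunit genes had similar widths. In MEF WT the medians were 3597.5 bp (3248 to 3867, n = 30) for the small and 3416.5 bp (3163 to 3843, n = 42) for the large subunit. In MMTV-CAF WT they were 5027 bp (4428 to 5703, n = 31) and 4875 bp (4527 to 5451, n = 45), and in wound-healing fibroblast WT 3419 bp (3036 to 4437, n = 27) and 3384 bp (3168 to 4010, n = 41). The intervals of the subunits overlapped in each of these lists.

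Of the small subunit, Rps6, the protein phosphorylated by kinases of the mTOR pathway, had widths of 3407 (MEF WT), 2977 (MEF KI), 2977 (MEF SG), 3665 (MMTV-CAF WT), 3420 (MMTV-CAF SG), 3251 (wound-healing fibroblast WT) and 3488 bp (SG). From here on, 7 values follow this order of lists. Rps27a, made as a fusion with ubiquitin, had 3489, 3103, 3114, 3707, 3298, 2820 and 3355 bp. Both genes stayed between 2820 and 3707 bp, and in MMTV-CAF WT they lay below the members' median of 4875 bp. Rps15a, a small-subunit protein, had 3480, 5631, 3423, 9219, 6772, 5782 and 6607 bp, with its MEF KI region wider than those of MEF WT and SG. Rps12, in the beak of the small subunit, had 4458, 4413, 4495, 6212, 4887, 4437 and 5353 bp, and Rps26, near the channel where messenger RNA exits, had 2366, 2021, 1952, 3451, 2438, 2423 and 2899 bp. Rps12 and Rps15a were among the 5 widest and Rps26 among the 5 narrowest of the 50 members covered in all lists, by mean rank of width. Rpsa had 3675, 3507, 4932, 4180, 3875 and 4561 bp and Rps19 4375, 4010, 5902, 5341, 4763 and 5115 bp in the 6 lists other than MEF KI.

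Of the large subunit, Rpl7 (chr1:16091376-16094743, minus strand) had the widest regions by mean rank, with 5799, 5391, 5337, 8267, 6502, 4148 and 6303 bp. In all 7 lists this region also held the start of Rdh10, a retinol dehydrogenase gene. Rpl3 (chr15:79908211-79913836, minus strand), which lies at the peptidyl transferase centre, had 5130, 4914, 4990, 6310, 6035, 6039 and 5954 bp. Rpl4, which lines the exit tunnel, had 4744, 4096, 4453, 6332, 4726, 4917 and 5232 bp, in a region that also held the start of Zwilch, a kinetochore gene, in all 7 lists. All 3 were above the members' median in each of the 7 lists. Rpl11, which binds Mdm2 together with Rpl5 when ribosome assembly fails, had 2895, 2821, 4614, 3572, 2956 and 3510 bp in the 6 lists other than MEF KI, and Rpl5 had 4459 (MMTV-CAF WT), 3320 (MMTV-CAF SG) and 4134 bp (wound-healing fibroblast SG) in the 3 lists that covered it.

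Rpl13a, the large-subunit protein that is released to silence inflammatory messages in interferon-treated cells, had 7271, 4184, 9694, 9387, 7835 and 8115 bp in the 6 lists other than MEF KI. All of these but the MEF SG region of 4184 bp were wider than 7 kb and held more than 1 protein-coding start. Rpl18 had 1236, 1209, 8067, 6264, 6005 and 6842 bp in the same 6 lists. Its regions in the tumour and wound cells were wider than the median of all genes in those lists and those in MEF narrower. The wide regions also held the start of Sphk2, a sphingosine kinase gene, and in MMTV-CAF WT and wound-healing fibroblast SG that of Fam83e, whereas those in MEF held no other start.

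The stalk genes differed among themselves. Rplp0 (chr5:116009476-116013736, plus strand) had 3293, 3859, 8403, 7348, 4003 and 4126 bp in the 6 lists other than MEF KI. Rplp1 (chr9:61761091-61762345, minus strand) had 1969, 1871, 2208, 2338, 3187 and 3578 bp in the same lists. Rplp2, the partner of Rplp1 in the stalk dimer, had 3538, 2729, 2620, 5444, 4439, 2593 and 3471 bp. The Rplp0 regions were widest in the MMTV-CAF lists, where they also held the start of Gcn1l1, which those of the other lists did not. Rplp1 was widest in wound-healing fibroblasts.

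Several members outside the standard ribosome had regions that were narrow for members, although only Rps19bp1 among them lay below all covered genes in every list. Rps19bp1, a nucleolar protein that binds Rps19 and is no subunit, had 1764, 1468, 1668, 2395, 1835, 1844 and 1913 bp, each below the median of all covered genes in its list. Rps27l, a copy of Rps27 induced by p53, had 2767, 2603, 2570, 2384, 2435, 1635 and 2962 bp. Rpl22l1, a copy of Rpl22, had 2481, 2453, 2198, 3563, 3449, 2240 and 2299 bp, and Rpl7l1, related to Rpl7, had 2194, 2100, 2438, 2922, 3237, 2123 and 3632 bp. With Rps26, these 4 genes made up the 5 narrowest of the 50 members covered in all lists. Rpl36al, also outside the standard ribosome, went the other way. It was wider than the median of all covered genes in every list, in regions that also held the start of Mgat2.

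The fold enrichment of the H3K4me3 region over input differed less between members and other genes than the width did. The members' median fold was 6.21 in MEF WT against 5.64 over all covered genes, 4.90 against 3.78 in MEF KI and 6.91 against 6.04 in MEF SG. Wound-healing fibroblasts had 7.80 against 7.75 (WT) and 8.93 against 8.70 (SG), and MMTV-CAF 10.8 against 9.89 (WT) and 12.1 against 10.8 (SG). The ratio of the medians was between 1.01 and 1.14 in 6 lists and 1.3 in MEF KI. As examples, Rps6 had folds of 7.039, 5.192, 6.909, 13.49, 15.48, 9.405 and 12.11, and Rpl3 had 6.323, 6.241, 6.99, 10.77, 11.9, 7.351 and 9.036. Both were highest in MMTV-CAF SG, the list with the highest median over all genes.

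WT lists of different types were compared at the same genes. Member regions in MMTV-CAF WT were wider than in MEF WT at 72 of 77 genes with both, with a median log2 ratio of 0.47 (0.42 to 0.55). Over all genes 9395 of 10449 were wider, with a median of 0.40. Against wound-healing fibroblast WT the members' median was 0.50 (n = 73) and that of all genes 0.46. Wound-healing fibroblast WT against MEF WT gave 0.02 (-0.05 to 0.08, n = 73) for members and -0.06 for all genes.

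Deleted and WT lists were then compared at the same genes, as the log2 of the deleted over the WT width where both lists covered the start. In MEF KI the members' median was -0.20 (-0.27 to -0.16, n = 54), with 49 members below 0 and 5 above, and the median over all genes was -0.30 (7030 of 7570 below). In MEF SG it was -0.11 (-0.17 to -0.08, n = 74; 64 below, 10 above) and -0.09 over all genes (7923 of 10522 below). In wound-healing fibroblast SG it was 0.19 (0.10 to 0.26, n = 73; 9 below, 64 above) and 0.18 over all genes (8492 of 11014 above). In every pair, that of MMTV-CAF included, the members' median had the sign of that over all genes. In MEF KI the median of all genes lay below the members' interval. For the pair of MMTV-CAF lists the members' median was -0.24 (-0.35 to -0.14, n = 80; 70 below, 10 above), while it was -0.06 over all genes (6443 of 10773 below). It was -0.12 over mitochondrial ribosomal protein genes, -0.18 over translation factor genes, -0.18 over other TOP genes and -0.19 over ribosome biogenesis genes. The medians of the translation factor, other TOP and ribosome biogenesis genes lay within the members' interval. As 1 library stands for each group, whether such gaps exceed the spread between cultures cannot be told from these lists.

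Where the edges lay shows which side of the regions differed. In MMTV-CAF SG the members' upstream edge lay at a median of 11 bp downstream of its WT position (-23 to 46) and the downstream edge 648 bp nearer to the start (a median of -648 bp, -910 to -417), against -83 bp over all genes and -217 bp over mitochondrial ribosomal protein genes. In MEF KI both edges were drawn in, by 155 bp (124 to 206) upstream and with -345 bp (-514 to -204) downstream, against 205 and -227 bp over all genes. In MEF SG the edges were drawn in by 61.5 bp upstream (38 to 95) and with -152 bp downstream (-250 to -94), against 40 and -69 bp over all genes. In wound-healing fibroblast SG both edges lay farther out, with -110 bp (-151 to -77) upstream and 369 bp (190 to 534) downstream, against -88 and 122.5 bp over all genes. In the MMTV-CAF pair the 60 members with a WT width over 4 kb had a median of -0.32 (-0.38 to -0.21), against -0.16 over the 3160 genes of that class, while the 20 members up to 4 kb had -0.03, against -0.02. WT width is part of the ratio, so a split on it lowers the ratio of the wide class for members and for all genes, and nothing is read from the split itself.

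Few members passed a ratio of 1.5, the size used here to call a width different. In MEF KI 3 of 54 were narrower (Rpl28, Rps18 and Rps9) and 1 wider (Rps15a), where 19.3% and 0.449% of all genes were. In MEF SG 4 of 74 were narrower (Rpl13a, Rpl34 and Rps2 among them) and 0 wider, against 4.42% and 0.57%. In MMTV-CAF SG 6 of 80 were narrower (Rpl14, Rpl7a, Rps10, Rps15 and Rps18 among them) and 0 wider, against 5.64% and 4.64%. In wound-healing fibroblast SG 0 of 73 were narrower and 8 wider (Rpl17, Rpl21, Rpl36al, Rpl7, Rpl7l1, Rps13, Rps27l and Rps3a), against 1.5% and 11%. At this ratio the shares of members were near or below those of all genes in the direction the list moved, which for MEF KI was narrower. This depended on the ratio, since with a lower one 33 of 80 members were narrower in MMTV-CAF SG, against 18% of all genes. A WT region that holds several starts is counted for each gene that starts in it. With the widths of all regions within 1 kb of a start summed, 12 of 80 members were narrower in MEF KI, against 29.8% of all genes.

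**Figure D3:**
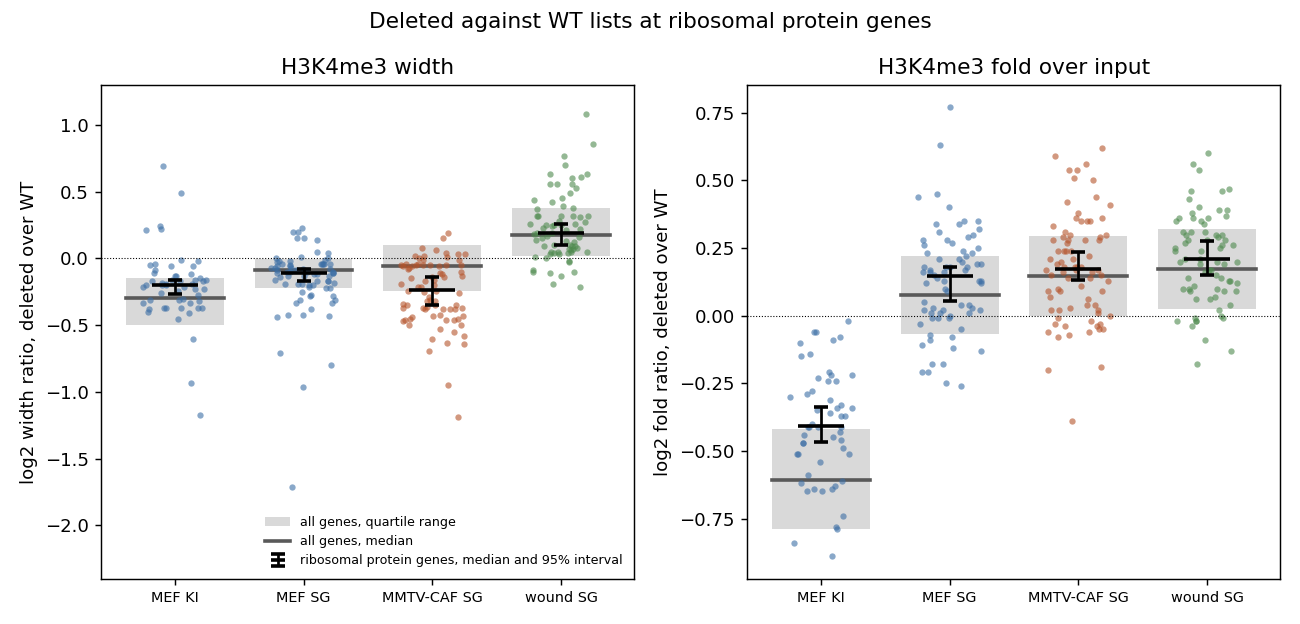
Left, log2 ratio of H3K4me3 width, and right, of fold over input, deleted over WT, for the 4 pairs; points are ribosomal protein genes covered in both lists, the black cross is their median with its 95% interval, and the grey box and line are the quartile range and median of all genes. Members' median width lies at -0.24 in MMTV-CAF SG, near the lower quartile of all genes, and their fold in MEF KI at -0.41 against -0.61 for all genes.

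Single genes at the ends of these distributions were partly those with other starts nearby. In MEF KI the lowest ratios were those of Rps9 (1700 bp against 3825 bp in WT, log2 -1.17) and Rps18 (3103 against 5907 bp, -0.93), both small-subunit genes, and the highest those of Rps15a (0.69) and Rps27 (0.49). Rps18 shared its MEF WT region with the starts of B3galt4 and Vps52. In MEF SG Rpl34 (-0.96) was among the lowest, and the highest were Rplp0 (0.23) and Rps7 (0.20). In MMTV-CAF SG Rpl7a, a large-subunit protein, had 5359 bp against 12192 bp (-1.19), and the WT region also held the starts of Med22, Surf1 and Surf2. Rps18 had 3793 against 7330 bp there (-0.95), and Rpl7l1 (0.15) was among the highest. In wound-healing fibroblast SG Rpl17 (1.08), whose region then also held the start of BC031181, and Rps27l (0.86) were highest, and Rpl31 (-0.21) and Rps28 (-0.19) lowest.

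The fold over input gave another order of the pairs than the width. The members' median log2 ratio of fold was -0.41 for MEF KI (all genes -0.61), 0.15 for MEF SG (0.08), 0.21 for wound-healing fibroblast SG (0.17) and 0.17 for MMTV-CAF SG (0.15). In MMTV-CAF SG regions over members were therefore narrower with a higher fold than in WT, and so were those in MEF SG. Rps18, for example, had 3793 bp and a fold of 13.49 in MMTV-CAF SG against 7330 bp and 10.93 in WT.

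Read as a housekeeping scale, the members place the lists as follows. Subtracting the members' median log2 ratio from that of all genes left -0.10 for width and -0.20 for fold in MEF KI, so the median of all genes lay below that of the members in both measures. It left 0.02 and -0.07 for MEF SG, and -0.01 and -0.04 for wound-healing fibroblast SG. For MMTV-CAF SG it left 0.18 for width and -0.03 for fold. For MEF SG and for MMTV-CAF SG, the choice of width or fold as the scale thus changes the sign of what remains. Mitochondrial ribosomal protein genes, another housekeeping group, had median log2 width ratios of -0.25 (MEF KI), -0.03 (MEF SG), 0.24 (wound-healing fibroblast SG) and -0.12 (MMTV-CAF SG).

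H3K27ac lay near almost every member in all lists, MEF KI included. A summit lay within 1 kb of the start of 82 members in MEF WT (96.5%, where 46.5% of all genes had one), 80 in MEF KI (94.1%, against 36%) and 82 in MEF SG (96.5%, against 48%). It was 80 in MMTV-CAF WT (94.1%, against 46.5%), 81 in MMTV-CAF SG (95.3%, against 48.5%), 81 in wound-healing fibroblast WT (95.3%, against 45.5%) and 81 in SG (95.3%, against 47.2%). In MEF KI 63 of 77 mitochondrial ribosomal protein genes (81.8%) had a summit. In all 7 lists 79 members had one, Rpl18 and Rplp1 in 6 lists each (absent in MEF KI and in MMTV-CAF WT) and Rps4y2 in 2, MEF WT and MEF SG.

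Summits present in 1 list of a pair alone were counted next, as shares of all genes. In MEF KI 2 members had a summit in WT alone (Rpl18 and Rps4y2), where 11.2% of all genes did, and 0 in the deleted list alone (0.797%). The MEF SG pair had 0 (1.09%) and 0 (2.68%) such members, the wound-healing pair 0 (1.74%) and 0 (3.36%), and the MMTV-CAF pair 0 (1.55%) and 1 (Rplp1, 3.55%). Of genes with a summit in MEF WT, 2 of 82 members and 2498 of 10323 genes had none in MEF KI, and 0 of 82 and 242 of 10323 had none in MEF SG. In the MMTV-CAF pair these were 0 of 80 and 344 of 10322, and in the wound-healing pair 0 of 81 and 387 of 10117. As 80 to 82 members already had a summit in WT, few could gain one, and nothing is read from the gains.

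The strongest summit within 1 kb had a higher median −log10 p at members than over all genes. The medians were 66.8 in MEF WT against 42.8 over all genes with a summit, 18.1 against 13.7 in MEF KI and 98.9 against 66.9 in MEF SG. Wound-healing fibroblasts had 46.6 against 29.9 (WT) and 69.8 against 43.1 (SG), and MMTV-CAF 80.3 against 53.8 (WT) and 83.1 against 59.5 (SG). The ratio of the medians was lowest in MEF KI (1.32) and highest in wound-healing fibroblast SG (1.62). Strong summits were not particular to ribosomal proteins. The other TOP genes had higher medians than the members in every list but MMTV-CAF SG, for example 72.7 in MEF WT and 89.2 in MMTV-CAF WT. Translation factor genes lay between all genes and the members, with 58.7 and 72.3 in these lists. A −log10 p grows with depth, which is unknown, so the levels are not compared between lists. The summit lay downstream of the start for 86.2% to 93.8% of members and 69.4% to 78.5% of all genes. The median signed position was 251.5 to 333 bp downstream for members and 200 to 220 bp for all genes, and the larger share of upstream summits at all genes lowers theirs.

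**Figure D4:**
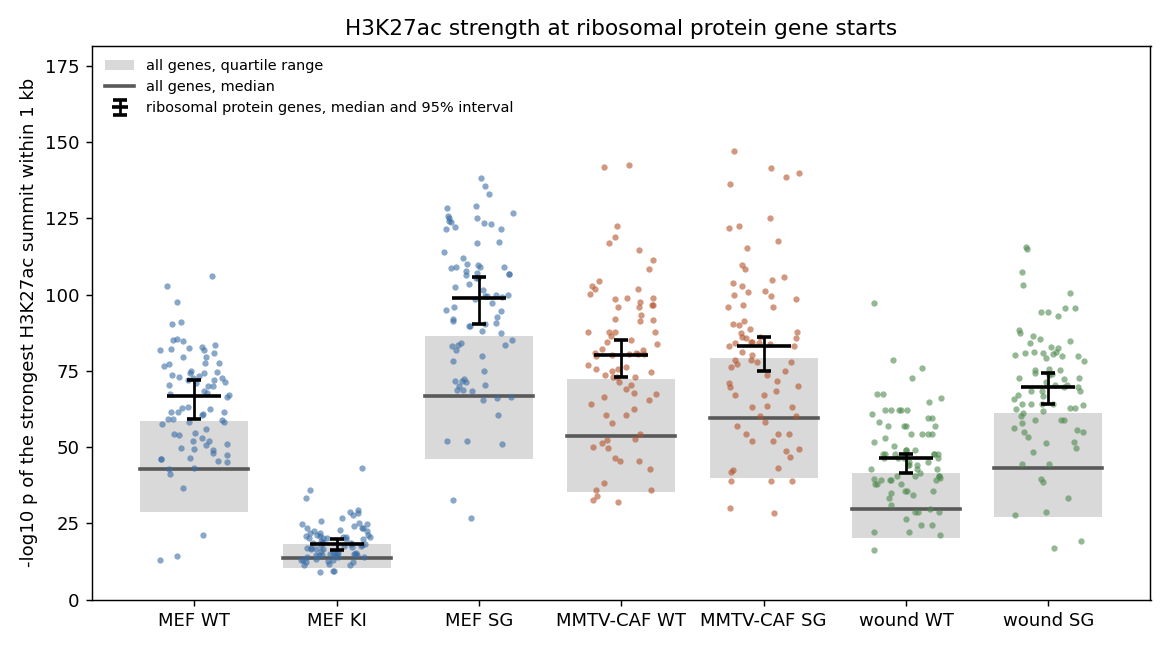
−log10 p of the strongest H3K27ac summit within 1 kb of the start, by list; points are ribosomal protein genes, the black cross is their median with its 95% interval, and the grey box and line are the quartile range and median of all protein-coding genes with a summit. In all 7 lists the members' median lies above the upper quartile of all genes, in MEF KI by the least, at 18.1.

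Values of single genes are given for each list on its own scale. Rpl3 had a −log10 p of 106.1, 36, 135.6, 102.8, 90.45, 75.84 and 75.67, and Rpl4 had 90.38, 43.2, 123.9, 80.71, 78.45, 56.82 and 70.55. Rps19 had 54.49, 21.21, 126.9, 114.8, 138.6, 59.46 and 64.27. In every list these 3 genes lay above the median of all genes. Rplp1 had 21.3, 12.97, 52.14, 38.89, 40.39 and 38.66 in the 6 lists other than MMTV-CAF WT, which held an H3K4me3 region but no H3K27ac summit there. Rpl18 had 14.23, 26.94, 38.34, 49.53, 16.26 and 17.1 in the 6 lists other than MEF KI. These values of Rpl18 lie below the median of all genes in each list that had a summit. Width and −log10 p over members had Spearman correlations of 0.11 (wound-healing fibroblast SG, n = 79) to 0.43 (MEF WT, n = 78).

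Prrx1 summits were found near ribosomal protein genes mainly in MMTV-CAF. In MEF 0 of 85 members had a Prrx1 summit within 1 kb of the start, which allows a share of up to 4.32%, and 0.414% of all genes had one. In MMTV-CAF 22 members did (25.9%, 17.8 to 36.1), against 6.44% of all genes and 12.6% of genes with H3K4me3 over the start. In wound-healing fibroblasts 4 members did (4.71%, 1.85 to 11.5), against 5.38%. Among these were Rpl3, Rpl36 and Rps19bp1, of which Rpl3 and Rpl36 also had a summit in MMTV-CAF. In MMTV-CAF the shares of 66 translation factor genes, 20 other TOP genes and 16 ribosome biogenesis genes were 19.7%, 20% and 25%, and that of mitochondrial ribosomal protein genes was 13%. No Prrx1 list from deleted cells was analysed here.

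**Figure D5:**
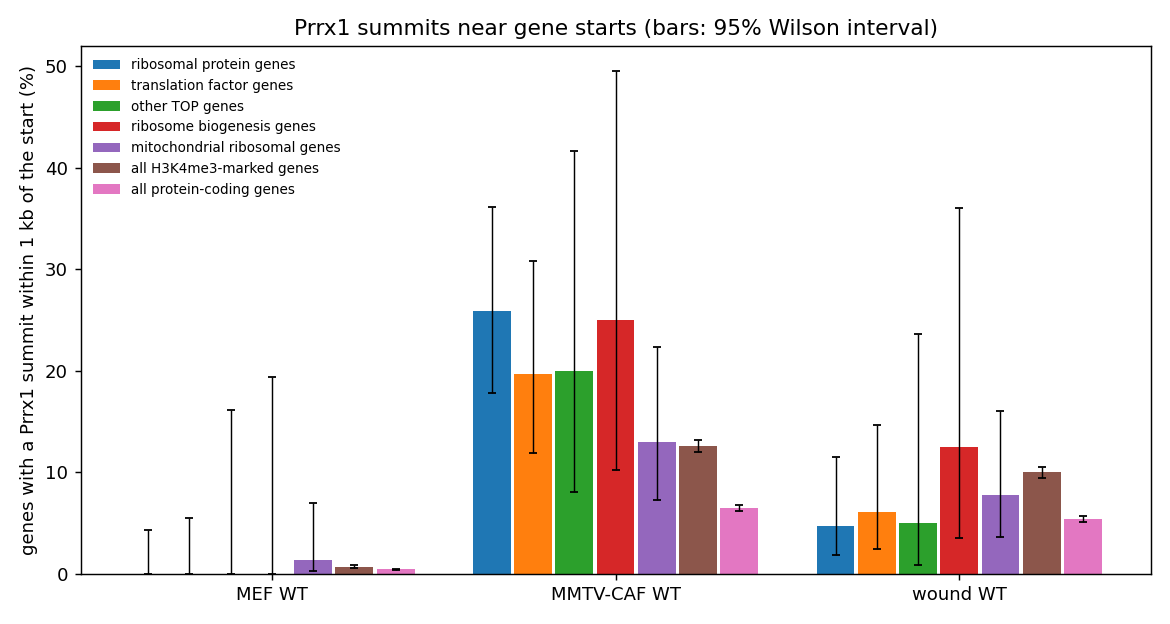
Percent of genes with a Prrx1 summit within 1 kb of the start in the 3 WT lists, for ribosomal protein genes and 6 other gene lists; bars start at 0 and the lines are 95% Wilson intervals. Ribosomal protein genes stand at 25.9% in MMTV-CAF, 4.71% in wound-healing fibroblasts and 0 in MEF, and in MMTV-CAF the intervals of the other translation lists overlap theirs.

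The median score of these summits lay below that over all genes. Their median −log10 p in MMTV-CAF was 6.25, with a range of 3.63 to 10.79, while the strongest summits at all genes had a median of 6.95 and reached 72.36. The highest value depends on the number of genes, so nothing is read from the highest of 22 and of 1431 genes. Below the stated cutoff of 5 lay 4 of the 22, against 235 of 1431 over all genes with a summit. Of the 22, 15 lay upstream of the start and 18 within 500 bp, and over the 1431 genes 957 and 1060 did. Rpl8 (9.62, 209 bp downstream), Rpl23a (9.52, 41 bp upstream) and Rpl10a (9.52, 375 bp upstream), all of the large subunit, were among the strongest and are named after their values were seen. At a −log10 p of at least 10, 1 of 85 members had a summit, against 1.28% of all genes, so the higher share at members was not seen at this strength. With the 3 Prrx1 lists reduced to the same number of strongest summits, 7 of 85 members had one in MMTV-CAF (2.5% of all genes) and 0 had one in wound-healing fibroblasts (2.38% of all genes).

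The letters around these summits were compared with the sequence recognised by homeodomains. TAATTA, which reads the same on both strands, lay within 100 bases of 3 of 24 summits near members in MMTV-CAF (12.5%), of 21.3% of summits within 1 kb of any protein-coding start and of 35.5% of all summits. TAAT, which TAATTA contains, lay near 62.5%, 70.6% and 86.1% (both strands). In wound-healing fibroblasts 0 of 4 summits near members had TAATTA and 2 had TAAT. There, TAATTA lay near 16.8% of summits within 1 kb of any protein-coding start and 41.9% of all summits, and TAAT near 55.7% and 82.9%. With 4 summits, no difference from these shares can be read. The following 61 bases are centred on MMTV-CAF summits and read on the plus strand of mm9, with the shorter word in capitals, on either strand. Rpl23a (chr11:77997097-77997157) is among the strongest and holds the shorter word, Rpl36 (chr17:56752634-56752694) is shown because a summit was called there in both types, and Rplp0 (chr5:116009407-116009467) holds neither.
Rpl23a: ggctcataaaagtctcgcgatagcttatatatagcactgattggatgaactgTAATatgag
Rpl36: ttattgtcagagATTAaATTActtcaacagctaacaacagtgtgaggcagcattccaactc
Rplp0: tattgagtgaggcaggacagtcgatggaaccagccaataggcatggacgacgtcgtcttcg

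Members with and without a Prrx1 summit were compared in MMTV-CAF WT. The median H3K4me3 width was 4903.5 bp over the 22 with and 4875 bp over the 59 covered members without a summit. The median −log10 p of H3K27ac was 89.9 and 76.3, and over all genes it was 65.4 with and 52.1 without. The −log10 p of H3K27ac was thus higher beside Prrx1 summits at all genes as well as at members.

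Ribosomal protein genes have many processed copies in the genome that share their sequence, and reads from either could be placed on the other. Of 152 annotated copies with -ps symbols, 0 to 3 had an H3K4me3 region over the start and 0 to 7 an H3K27ac summit within 1 kb in any list. The setting for reads that match several places is not given in the sources used here, so values at members with near-identical copies are uncertain to an unknown degree.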

How the data were processed

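ChIP-seq peak lists of 17 samples were analysed; the 7 inputs entered only as the authors used them. The authors used Trimmomatic for trimming, Bowtie for alignment to mm9, Picard for removal of duplicates and MACS2 for peaks against input. Each summit of the deposited H3K27ac and Prrx1 lists is 1 base and comes with its −log10 p. The broad regions of the deposited H3K4me3 lists come with a score, −log10 p and q values, and the ratio (fold) over input.

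Genes came from GENCODE vM1 on NCBIM37 (mm9). The start was that of the longest coding transcript, with those in CCDS first, a preference added after first values were seen. An H3K4me3 region counted where it covered the start. A summit counted within 1 kb, and the one with the highest −log10 p was taken. Width ratios of 1.5 were called. With 1 list per group no test was run. Medians carry order-statistic and shares Wilson 95% intervals. Named genes were the 5 widest and 5 narrowest members covered in all 7 lists, members with missing marks, the 2 highest and 2 lowest width ratios per pair, and Rplp0, Rplp1, Rplp2, Rpsa, Rps27a, Rps6, Rps19, Rpl5, Rpl11 and Rpl13a. Values of some members are not reported here by name. The members and gene lists were chosen with earlier results of these data known. Scripts were tested on simulated lists. Versions were matplotlib 3.10.9, scipy 1.17.1, pandas 2.3.3, numpy 2.4.6 and Python 3.11.15.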

Additional observations from a re-analysis of the deposited data

Results flagged for a closer look

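The median log2 ratio of H3K4me3 width at ribosomal protein genes had opposite signs in different cells. Against the WT list it was -0.200 (MEF KI), -0.108 (MEF SG), 0.192 (wound-healing fibroblast SG) and -0.237 (MMTV-CAF SG). The difference was not tested, since each group has 1 list, and the members did not all move 1 way in any pair. The medians over all genes had the same signs (-0.297, -0.090, 0.178 and -0.057).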

How the results depend on the processing

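Of 312 recomputed values, 294 moved by less than their interval or by less than 1.5 times, 18 moved further and 0 reversed. With all regions near a start summed, the median log2 width ratio of members in MEF KI was -0.284 (all genes -0.375) and 12 of 80 members were narrower (29.8% of all genes). With any annotated start, 7 of 65 were narrower in MEF KI (23.5%). With a lower width ratio the narrower members were 14 of 54 (MEF KI, all genes 45.9%), 11 of 74 (MEF SG, 14%) and 33 of 80 (MMTV-CAF SG, 18%), and the wider 2 of 54 (MEF KI, 1.23%) and 23 of 73 (wound-healing fibroblast SG, 30.8%). With a ratio of 2 the narrower were 1, 1 and 1 (6.35%, 1.38% and 1.44%), and the wider 0 and 1 (0.172% and 2.55%). With standard genes only, 5 of 68 were wider in wound-healing fibroblast SG (11%). Members with a Prrx1 summit at a −log10 p of at least 10 were 1 (MMTV-CAF, all genes 1.28%) and 0 (wound-healing fibroblasts, 0.342%), and with lists reduced to equal size 7 and 0 (2.5% and 2.38%). Except for ratios and strength cuts, whose construction sets the count, the cause was not tested. The 1 kb reach for H3K4me3 and the start by longest coding sequence were chosen after seeing the data. Depth is unknown, which limits every comparison between lists. No paired analysis was possible because the labels give no shared replicate numbers and each group has 1 list, so no replicate could be left out either. The SG and WT pairs of the 3 fibroblast types were given side by side and not tested together.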
